A study of Mus musculus with 3 samples.

Results

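The genes described here are 9 genes of red blood cells and their precursors: the globins Hbb-bh1, Hbb-y, Hba-x and Hba-a1, the transcription factors Klf1 and Gata1, the heme enzyme Alas2, the membrane protein Ermap and the carbonic anhydrase Car2. They were chosen by name with results of the same arrays in view, so their values are a description and carry no test. All 9 were found as oligos with exactly 1 gene symbol and had a value on every array, and they stand among 19635 genes measured, of which 14746 have a symbol. Hba-x had 2 oligos, which were averaged, and each other gene had 1.

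The study compared kidney of 13.5 dpc (days post coitum) with metanephric mesenchyme of 10.5 dpc, the embryonic tissue from which the nephrons of the permanent kidney arise. Both were dissected from CD1 mouse embryos of pooled sexes, with no genetic change or treatment named, and their RNA was hybridised together on each of 3 2-colour arrays with no common reference. The deposited value is a log2 ratio of the channels, in which channel 1 held the kidney and channel 2 the mesenchyme. The labels mention a dye swap but do not give the dyes of each array. No source used here names the numerator, so genes are placed on the negative or the positive side of the deposited ratio and neither side is read as higher in the kidney. Nothing in the labels says that the arrays came from separate pools of tissue, so every spread given here is between arrays and may be technical.

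Red cells of the mouse embryo arise in waves. Primitive erythroblasts come from the yolk sac, circulate with their nuclei and carry embryonic globins, among them the beta-like chains of Hbb-bh1 and Hbb-y and the alpha-like chain of Hba-x. Definitive red cells come later, from the fetal liver, and carry adult globins. GATA1 and KLF1 switch on much of the red-cell programme in both waves by binding GATA and CACCC boxes in the promoters and enhancers of globin, heme and membrane genes. Neither kidney nor metanephric mesenchyme is known as a site of red-cell formation.

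On all arrays together, 9 of 9 genes had a negative mean, where 49.7% of all genes measured did. A mean log2 ratio of -1 or lower was found for 5 of the 9, against a background of 2.98%, and of -2 or lower for 4, against 0.234%. All 3 arrays were negative for 7 of the 9, against 19.9% of all genes. These shares follow in part from how the genes were chosen. The median of the 9 means was -1.2 and that of all genes 0.002. In RNA of whole tissue, fewer cells of a type and less RNA per cell cannot be told apart.

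**Figure D1:**
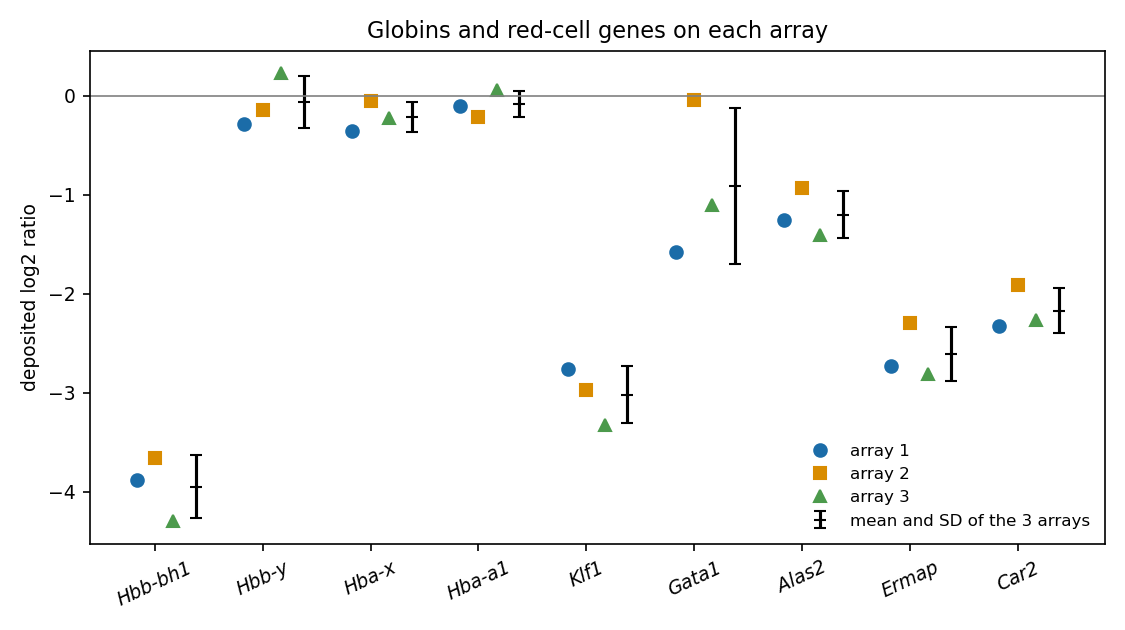
Deposited log2 ratio (vertical axis) of each of the 9 genes on arrays 1, 2 and 3, with the mean and the SD over the 3 arrays beside the points. Hbb-bh1, Klf1, Ermap and Car2 lie at -1.91 or lower on every array, Hbb-y, Hba-x and Hba-a1 lie between -0.35 and 0.23, and Gata1 is near 0 on array 2 alone.

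The globins split into 1 gene far from 0 and 3 near it. The adult beta-globins Hbb-b1, Hbb-b2, Hbb-bs and Hbb-bt were not among the genes analysed. Hbb-bh1, an embryonic beta-like globin, had log2 ratios of -3.88, -3.66 and -4.30 on arrays 1, 2 and 3. All 3 arrays were low, with a mean of -3.95 ± 0.32 (SD, n = 3), a 15.4-fold difference between the tissues, and only 2 of the 19635 genes had a lower mean. Hbb-y, the embryonic beta-like globin next to it in the beta-globin cluster with no annotated gene between them, had -0.28, -0.14 and 0.23. Its arrays fell on both sides of 0, its mean was -0.06 ± 0.26, and without array 1 the mean was on the positive side, at 0.046.

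The alpha-like globins were also near 0. Hba-x, the embryonic alpha-like chain, had -0.35, -0.05 and -0.22, a mean of -0.21 ± 0.15. Its oligos differed on array 3, where that of accession AF078905 read -0.52 and that of NM_010405 read 0.08. Hba-a1, an adult alpha-globin that neighbours Hba-x in the alpha cluster, had -0.10, -0.21 and 0.06, a mean of -0.08 ± 0.13, with arrays on both sides of 0. The near-identical copy Hba-a2 was not analysed here, and an oligo for one can bind RNA of the other, so the value is uncertain as to the gene. The same holds among embryonic globins as far as their sequences are alike, which was not tested.

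Within each array the distance of Hbb-bh1 from the other globins was large. Its log2 ratio minus that of Hbb-y was -3.61, -3.52 and -4.53 on arrays 1, 2 and 3 (mean -3.89 ± 0.56). Against Hba-x the difference was -3.53, -3.61 and -4.08, and against Hba-a1 it was -3.78, -3.45 and -4.36. These are differences between deposited ratios. Only ratios were used here, so whether the spots of the near-0 globins were saturated could not be examined, and unequal change of the RNAs is not shown by them alone. The pseudogene oligos for Hbb-bh3 and Hba-ps3, looked at after the values of the others were seen, had means of 0.07 ± 0.14 and 1.01 ± 1.25. Those of Hba-ps3 ran from -0.41 to 1.96.

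The transcription factors of the set differed in size and in evenness. Klf1, the CACCC-binding activator of the beta-globin locus and of many red-cell genes, had -2.76, -2.97 and -3.33, all low, with a mean of -3.02 ± 0.29 or an 8.11-fold difference. It ranked 6 from the negative end of all genes. Gata1, the zinc-finger factor that red-cell precursors need to mature, had -1.58, -0.04 and -1.10. Arrays 1 and 3 were low and array 2 was near 0, so that its mean of -0.91 ± 0.79 became -1.34 without array 2 and -0.57 without array 1. Gata1 had the widest range of the 9, 1.54 on the log2 scale, against 0.27 to 0.64 for the other 8. Klf1 minus Gata1 was -1.18, -2.92 and -2.23 within the arrays.

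Alas2, the red-cell enzyme of the first and rate-limiting step of heme synthesis, had -1.25, -0.93 and -1.41, with every array low and a mean of -1.20 ± 0.24, a 2.29-fold difference. Ermap, a membrane protein of the immunoglobulin superfamily found on erythroblasts and red cells, had -2.73, -2.30 and -2.81, a mean of -2.61 ± 0.27 and a 6.11-fold difference. Car2, the carbonic anhydrase that speeds the exchange of carbon dioxide and bicarbonate in red cells and also in kidney and other tissues, had -2.33, -1.91 and -2.27. Its mean was -2.17 ± 0.23, a 4.49-fold difference, and its arrays did not reach those of Ermap: Ermap minus Car2 was -0.40, -0.40 and -0.54.

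From the negative end, all 3 arrays gave the order Hbb-bh1, Klf1, Ermap and Car2, with Alas2 next on arrays 2 and 3 and Gata1 next on array 1. Hbb-bh1 minus Klf1 was -1.13, -0.69 and -0.96 within the arrays. Klf1 and Ermap were nearly level on array 1, where they differed by -0.03, and stood apart by -0.67 and -0.53 on arrays 2 and 3, a mean difference of -0.41 ± 0.34. Car2 minus Alas2 was -1.07, -0.97 and -0.86, larger than its spread. Alas2 minus Gata1 was 0.32, -0.89 and -0.30, so that these neighbours changed places on array 1. Gata1 and Hba-x met on array 2, where they differed by 0.01. Hba-x, Hba-a1 and Hbb-y kept no common order over the arrays. Array 2 had the value nearest 0 for 7 of the 9 genes. The same was seen for 50.2% of the 1047 genes with a mean of at least 1 in size. Hbb-y, Hba-x, Hba-a1 and Gata1 are below that size, so these shares are not of like genes. Array 2 also had the smallest spread over all genes, with an SD of 0.626 against 0.728 and 0.733.

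**Figure D2:**
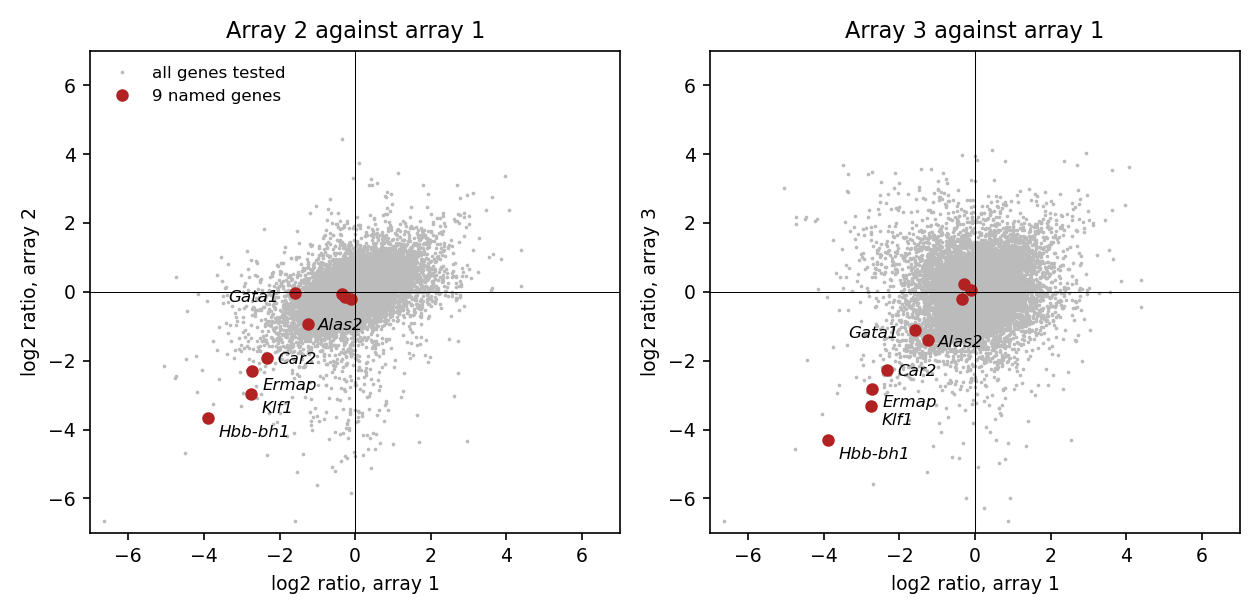
Log2 ratio on array 2 (left) and array 3 (right) against array 1 for all 19635 genes (grey) and the 9 red-cell genes (red). Hbb-bh1, Klf1, Ermap and Car2 lie outside the bulk of the grey points near the diagonal in both panels, although arrays 1 and 3 correlate only at 0.166 over all genes.

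Over all genes the Pearson correlation was 0.464 for arrays 1 and 2, 0.166 for arrays 1 and 3 and 0.162 for arrays 2 and 3, a description across genes, which are not independent replicates. Array 3 thus stood apart from the others, and whether the dye labelling differed between them is not given. Without array 3 the means were -3.77 for Hbb-bh1, -2.86 for Klf1, -2.51 for Ermap, -2.12 for Car2, -1.09 for Alas2 and -0.81 for Gata1. The median SD over the arrays was 0.262 for the 9 genes and 0.324 for all genes, and 7 of the 9 had an SD below the latter, and the evenness of the arrays was known when the genes were chosen. Among genes with a mean of -1 or lower, the median SD was 0.609.

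Promoter sequence is shown for genes that stood far to the negative side together and, beside them, for embryonic globins that did not. The windows are the 250 bases before the start that the promoter table gives for the gene, from RefSeq on GRCm38.p6. For Ermap the last 18 of these are left off, since the annotated gene already begins there, so its printed run of 232 bases ends 18 bases short of that start. The table holds 7 of the 9 genes and has no entry for Hbb-bh1 and Car2. Capitals mark GATA boxes, searched as AGATAA, its form ending in G (AGATAG) and the same pair with T as the first base (TGATAA, with TGATAG as the last form), and CACCC boxes, searched as CCNCNCCC, both on either strand, and overlapping matches of the latter run together. The coordinates are chr8:84901732-84901981, plus strand, for Klf1, chr4:119190014-119190245, minus strand, for Ermap, chrX:150547167-150547416, plus strand, for Alas2, chr7:103853208-103853457, minus strand, for Hbb-y and chr11:32276350-32276599, plus strand, for Hba-x.
Klf1: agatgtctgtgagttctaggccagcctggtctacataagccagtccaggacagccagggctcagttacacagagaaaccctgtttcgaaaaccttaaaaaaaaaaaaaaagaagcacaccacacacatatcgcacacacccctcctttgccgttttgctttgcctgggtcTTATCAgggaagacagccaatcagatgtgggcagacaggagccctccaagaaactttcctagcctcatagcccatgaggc
Ermap: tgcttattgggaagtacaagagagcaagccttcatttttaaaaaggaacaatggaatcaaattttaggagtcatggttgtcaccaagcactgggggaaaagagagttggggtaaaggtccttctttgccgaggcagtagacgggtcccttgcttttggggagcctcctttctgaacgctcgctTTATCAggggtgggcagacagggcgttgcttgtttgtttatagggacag
Alas2: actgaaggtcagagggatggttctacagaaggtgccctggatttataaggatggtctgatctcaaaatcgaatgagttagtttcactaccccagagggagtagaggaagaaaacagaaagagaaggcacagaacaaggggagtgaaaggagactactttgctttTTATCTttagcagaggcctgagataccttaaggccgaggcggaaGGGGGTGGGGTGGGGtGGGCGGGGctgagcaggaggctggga
Hbb-y: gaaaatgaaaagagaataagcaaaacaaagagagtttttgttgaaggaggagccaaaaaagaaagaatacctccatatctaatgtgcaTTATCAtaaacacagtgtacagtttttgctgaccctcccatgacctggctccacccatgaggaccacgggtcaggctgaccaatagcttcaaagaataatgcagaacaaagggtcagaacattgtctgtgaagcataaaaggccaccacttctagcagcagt
Hba-x: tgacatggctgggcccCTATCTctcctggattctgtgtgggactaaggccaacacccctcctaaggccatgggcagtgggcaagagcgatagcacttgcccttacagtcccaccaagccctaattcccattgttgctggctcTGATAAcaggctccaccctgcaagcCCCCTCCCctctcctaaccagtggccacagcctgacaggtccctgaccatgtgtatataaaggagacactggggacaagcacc

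A GATA box was found in the 250 bases before the start of 6 of these 7 genes, all but Gata1. The Gata1 window lies wholly inside the annotated gene, so it is not sequence upstream of that gene. Of all 32851 windows of that length in the table, 26.5% hold a GATA box. In Klf1, Ermap and Alas2, the genes of the table with means from -3.02 to -1.20, the box lay on the opposite strand, at bases 80 to 75, 67 to 62 and 86 to 81 before the table's start, from which all positions are counted. A GATA box within the last 100 bases was seen in these 3 of the 7 genes and in 10.4% of all windows, a distance chosen after the positions were seen. In the globins near 0 the boxes lay farther out, at bases 162 to 157 in Hbb-y, 183 to 178 in Hba-a1 and 234 to 229 and 108 to 103 in Hba-x. The CACCC box was found 4 times in Alas2, 3 times in Gata1 and once in Hba-x, and in 45.9% of all windows. A match of letters is a description and does not show that a factor binds there, and a window without one says nothing about the factor.

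**Figure D3:**
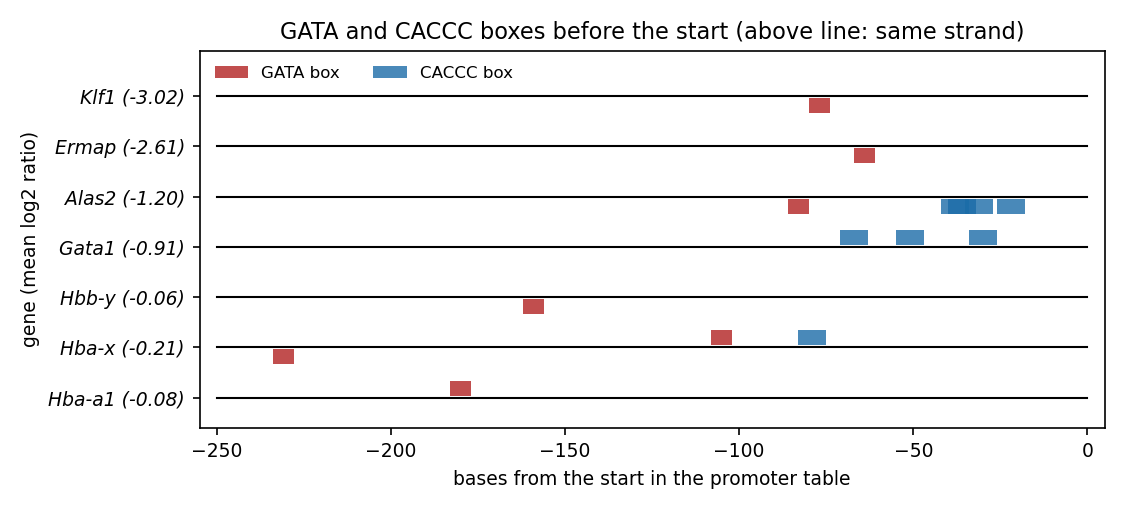
Position of GATA boxes (red) and CACCC boxes (blue) in the 250 bases before the promoter table's start of the 7 genes with an entry, drawn above the line for the gene's own strand and below it for the other, with each gene's mean log2 ratio in brackets. The GATA boxes of Klf1, Ermap and Alas2 lie between bases 86 and 62 before that start, and the Gata1 window lies inside the annotated gene.

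Other genes were taken from 8 lists of textbook members, called red-cell lists below. Besides the red-cell programme they hold relatives of Car2 (13 measured) and of the globins (3 measured), not all of them red-cell genes. Of 115 such genes measured, none of the 9 included, 61 had a negative and 54 a positive mean, and their median was -0.026. Limma's test of the mean against 0 passed 0 of them with Benjamini-Hochberg adjustment over all 19635 genes. It passed 1 gene of the whole table, on the negative side (0.00509%). That gene had the lowest deposited ratio, 0.01, on every array (mean log2 ratio -6.64, SD 0.0), so its call rests on values at this floor. Without adjustment, limma's p was under 0.05 for 11 of the 115 on the negative and for 10 on the positive side, or 18.3% together, beside 16.8% of all genes (7.83% negative, 8.99% positive). Without array 1 these counts were 7 and 6, and without array 2 they were 12 and 3. With all arrays, the carbonic anhydrase family gave 1 of the negative and 3 of the positive genes. A share near that of all genes is no result about the lists, and the genes named below that have an unadjusted p under 0.05 did not pass the adjusted test.

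Among 21 measured erythroid transcription factors, 12 were negative on all 3 arrays (57.1%, beside 19.9% of all genes). Mafk was among them though close to 0, at -0.05, -0.01 and -0.20, and the list median was -0.26. The red-cell lists together did not share so high a figure: over the 115 genes 27.8% were negative on all 3 arrays. Among the 3 other globins only Cygb was negative on all 3 arrays, at -0.01, -0.11 and -0.06. The share was 31.2% for the heme list and 36.0% for the membrane list. For the iron, signalling, enzyme and carbonic anhydrase lists it was 7.69% to 13.3%, below that of all genes. Gfi1b, a repressor that red cells and platelets need, had -2.27, -1.56 and -1.87 and a mean of -1.90 ± 0.35, with every array low. Lyl1, a basic helix-loop-helix factor of blood cells, had -1.09, -0.61 and -1.18, and Bcl11a, the repressor of embryonic and fetal globins, had -1.19, -2.63 and -1.08. The Bcl11a oligos disagreed on every array, with -0.66, -4.45 and -0.04 for AK012913 and -1.73, -0.82 and -2.11 for NM_016707. These 3 were the factors on the negative side at an unadjusted p under 0.05, and without array 2 there were 5.

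Other proteins that work in complexes with GATA1 lay closer to 0 than Gfi1b. Tal1, a helix-loop-helix factor, had -0.31, -0.40 and -0.13, Lmo2, the bridging LIM protein, had -0.34, -0.27 and -0.20, and Zfpm1, the cofactor FOG1, had -0.40, -0.34 and -0.17. Ldb1, a further adaptor of the complex, had 0.31, -0.18 and -0.31, on both sides of 0; it is named after its values were seen. None of the 4 had an unadjusted p under 0.05. Gata2, which comes before GATA1 in blood progenitors, lay on the positive side at 0.60, 0.53 and 0.39, and so did Myb, a factor of immature blood cells, at 1.10, 0.45 and 1.45; both had an unadjusted p under 0.05. The oligos of Nfe2, a globin locus activator, were on opposite sides, with means of -1.53 for L09600 and 0.42 for U12023. Mafg had the lowest mean of the list, -2.38 ± 2.39, set by array 2 at -5.10 against -0.60 and -1.43.

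In the list of 25 membrane and skeleton proteins 19 means were negative, with a median of -0.21, and 9 were negative on all 3 arrays (36.0%, beside 19.9%). Those with an unadjusted p under 0.05 on the negative side were Rhd, the Rh blood group protein, at -1.09 ± 0.74, the integral membrane protein Stom at -0.90 ± 0.78, the scaffold Mpp1 at -0.80 ± 0.29 and the adhesion protein Icam4 at -0.52 ± 0.14. Without array 1 the list had 0 such genes on the negative side, and without array 3 it had 3. Cd47, the marker of self on red and other cells, was on the positive side at 0.45 ± 0.04. Slc4a1, the anion exchanger band 3, had 0.09, 0.28 and 0.88, and Ank1, the ankyrin that anchors it to spectrin, had -0.28, 1.12 and 2.24, the highest mean of the list (1.03 ± 1.26).

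Among 16 other genes of heme synthesis and breakdown 10 had negative means, with a median of -0.17, or -0.083 without array 1 and -0.035 without array 3. Blvrb, a reductase of heme breakdown products abundant in red cells, had -0.94, -1.06 and -0.48, and Urod, the uroporphyrinogen decarboxylase, had -0.42, -0.27 and -0.95. Flvcr1, a heme exporter, had 0.28, 0.98 and 0.46. These 3 had an unadjusted p under 0.05, and with array 1, 2 or 3 left out the list had 1, 0 and 2 such genes. Alas1, the form of the Alas2 step in other tissues, had -0.07, 0.13 and -0.04, so that its arrays fell on both sides of 0. Fech, which puts iron into heme, had 0.06, 0.49 and -0.01. Alad had the highest mean, 1.24 ± 1.20, with array 2 at 2.55.

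Iron genes had a median of 0.17 over 15 genes. Slc40a1, the iron exporter ferroportin, had 1.21, 1.31 and 1.10, a mean of 1.21 ± 0.10, and was the only gene of that list with an unadjusted p under 0.05. Slc25a37, the mitochondrial iron importer of red-cell precursors, had the lowest mean, -0.82 ± 0.81. The iron transporter Slc11a2 had a mean of 0.30 ± 0.43. Tfrc, the transferrin receptor, had oligo means of 0.65 and -0.13. In the list of erythropoietin and stem cell factor signalling the median over 10 genes was 0.075. Epor, the erythropoietin receptor, had -0.44, -0.36 and -0.12, and Kit, the receptor of stem cell factor, had 0.44, 0.28 and 0.42. Jak2, the kinase bound to the erythropoietin receptor, had the highest mean, 1.32 ± 1.13, with array 3 at 2.62, and an unadjusted p under 0.05. Gab2 had the lowest, -0.54 ± 1.18.

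Red-cell enzymes and stress proteins had a median of 0.17 over 13 genes. Trim10, a protein of maturing red cells, had -1.86, -0.73 and -0.92, and Bnip3l, which marks mitochondria for removal as red cells mature, had 0.39, 0.51 and 0.30; these were the ones with an unadjusted p under 0.05. Car1, the other abundant carbonic anhydrase of red cells, had 1.10, 0.88 and -0.47, and the peroxidase Prdx2 had a mean of -0.09 ± 0.17. Among 13 relatives of Car2 the median was 0.22. Car14, a membrane-bound form, had the lowest mean of these, -1.39 ± 0.56, and Car4, Car5b and Car10 had means of 0.59 ± 0.24, 0.73 ± 0.24 and 1.13 ± 1.00, all 4 with an unadjusted p under 0.05. Without array 1 or without array 2 this family had 2 such genes. The list of enzymes and stress proteins had 1 without array 1 or 2 and 4 without array 3. With 1 array left out, medians changed sign for the iron list (-0.00049 without array 3) and the signalling list (-0.025 without array 2). They also did for the enzyme list (-0.012 without array 1) and the list of other globins (from -0.061 to 0.068 without array 1). Of 12 other globins listed, 3 were measured: Mb, Ngb and Cygb, which serve muscle, nerve and other tissues. Their means ran from -0.16 to 0.30 and none had an unadjusted p under 0.05.

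**Figure D4:**
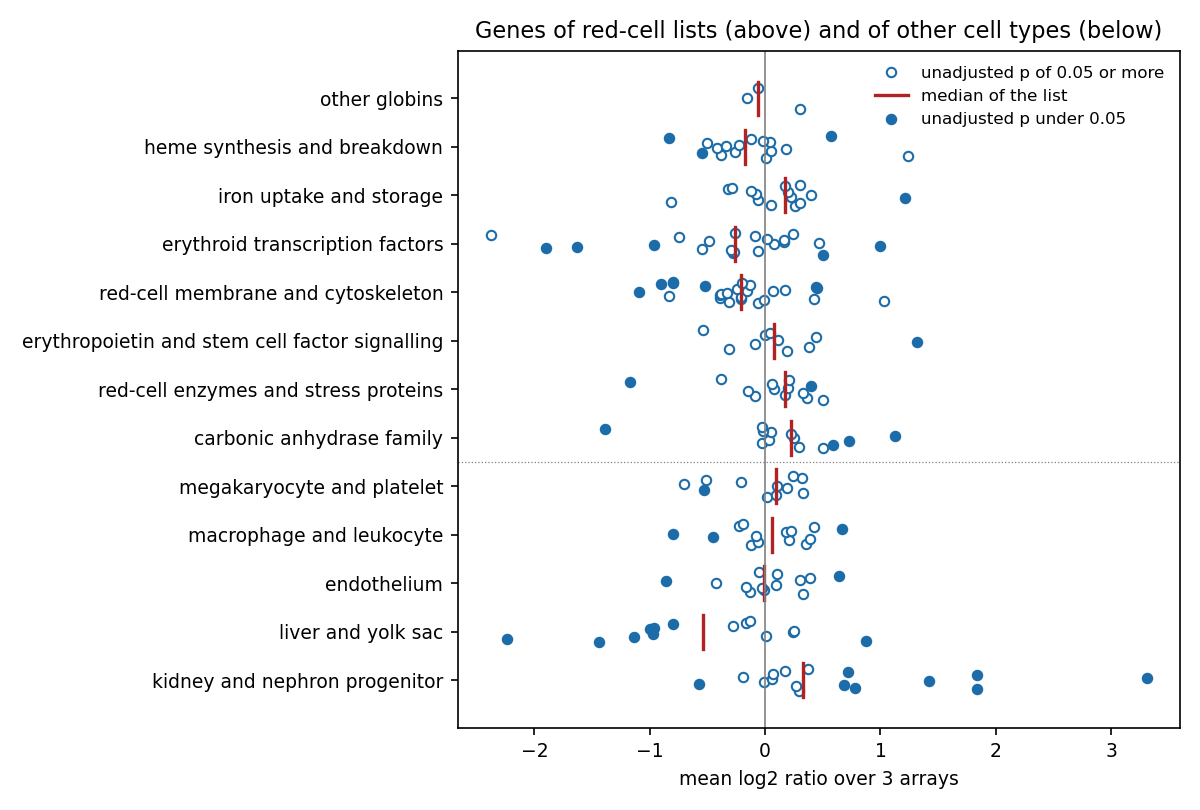
Mean log2 ratio over the 3 arrays (horizontal axis) of each measured gene of the 8 red-cell lists and of 5 lists of other cell types, filled where limma's unadjusted p is under 0.05, with the list's median as a red line. The 9 genes are left out, and liver and yolk sac genes have the lowest median, -0.54.

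Markers of other cells that blood or tissue could bring were set beside these values. Secreted proteins of liver and yolk sac, the organs where embryonic red cells are made, lay on the negative side too: their median was -0.54 over 14 genes, 10 means were negative, and 7 had an unadjusted p under 0.05 on that side, or 4 without array 1. Afp, alpha-fetoprotein, had -1.47, -1.30 and -1.56, and Ttr, transthyretin, had -3.38, -1.81 and -1.54. Apoa1, Trf, Apoa4, Rbp4 and Serpina1a were the others, from -1.14 to -0.80, while albumin, Alb, was on the positive side at 0.87 ± 0.57. The part of these tissues in the red-cell values was not tested. The list's levels in each tissue cannot be had from ratios.

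The other blood lineages and the vessel wall had medians near 0, each of which changed sign with 1 array left out (-0.11 for platelets without array 2, -0.043 for leukocytes without array 3, 0.030 for endothelium without array 2). Megakaryocyte and platelet genes, of a lineage that GATA1 also drives, had a median of 0.086 over 11 genes. Itga2b, the platelet integrin, had 0.15, 0.52 and -0.63, Pf4 had the highest mean, 0.33 ± 1.00, Gp5 the lowest, -0.70 ± 1.08, and Ppbp, at -0.53 ± 0.21, was the only gene with an unadjusted p under 0.05. Macrophage and leukocyte genes had a median of 0.057 over 14 genes, with Itgam at -0.80 ± 0.24 and Fcgr3 at -0.45 ± 0.21 on the negative side and Fcer1g at 0.67 ± 0.46 on the positive side. Endothelial genes had a median of -0.011 over 13 genes, with Cd34 at -0.86 ± 0.47 and Ramp2 at 0.64 ± 0.14. These 5 genes had an unadjusted p under 0.05 and no others in the 2 lists did, and without array 1 there were 1 in the leukocyte and 0 in the endothelial list. Without array 2 the leukocyte list had 1, and without array 3 the endothelial list had 1. The platelet list had 0 without array 1 or 2 and 2 without array 3. Of 16 defining genes of the kidney and its mesenchyme, 13 had positive means (median 0.33), and at an unadjusted p under 0.05 there were 7 positive genes, from Cdh16 at 3.31 ± 0.48 to Gdnf at 0.68 ± 0.25, and 1 negative, Osr1 at -0.57 ± 0.07. Without array 1 there were 5 positive and 0 negative. All 3 arrays were negative for 35.7% of the leukocyte list, near the 36.0% of the red-cell membrane list. The same held for 7 of the 14 liver and yolk sac genes. The platelet, endothelial and kidney lists had 9.09%, 15.4% and 6.25%, below the 19.9% of all genes. Ratios do not show whether a marker is absent from a tissue.

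The genes nearest to each of the 9 in their 3 log2 ratios were found by Euclidean distance over the arrays among the 14746 named genes. Nearest to Hbb-bh1 were Bnc1 at a distance of 1.47, Ogfr at 1.59 and Klf1 at 1.64. Bnc1 had -4.77, -2.51 and -4.58 and Ogfr -4.04, -2.27 and -3.54, so both were less even than Hbb-bh1. Nearest to Klf1 were Stip1 (0.825), Ermap (0.851) and Pitx1 (0.954), and nearest to Ermap were Stip1 (0.163), Pitx1 (0.410) and Timmdc1 (0.479). Stip1, a co-chaperone, had -2.86, -2.27 and -2.90. Nearest to Car2 were Gfra3 (0.177), Slc39a7 (0.331) and Frzb (0.444).

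Genes with smaller ratios have many neighbours. Nearest to Alas2 were 1700120J03Rik (0.092), 4930579H20Rik (0.115) and Acads (0.137), and nearest to Gata1 was Hoxa9 (0.116), which had -1.51, -0.06 and -1.20, followed by Nop14 (0.234) and Pfdn5 (0.237). The near-0 globins had neighbours at 0.0143 to 0.0633, Muc1, Nsa2 and 4930431F12Rik for Hbb-y, Ascc2, Tmem59 and Ube2g2 for Hba-x and Cd248, Rpl14 and Vmn2r122 for Hba-a1. Likeness over 3 arrays is a description. Over the 27 places named, in which Stip1 and Pitx1 stand more than once, Klf1 and Ermap were the only genes among the 9 or the 8 red-cell lists.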

How the data were processed

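The authors deposited 1 log2 ratio of the 2 channels per oligo and array. The log base was read from the table, where raising 2 to the value gives a number with 3 decimals in at least 99.7% of cases on each array. Images were read with Imagene 5.5 and ratios normalized by print-tip loess and between arrays, with a lowess curve over 20% of the data and a control floor of 10, per the labels. Array medians over genes were 0.0043, 0.030 and -0.0029, so the arrays are centred near 0 and a shift of most genes would not be seen. The direction of the ratio, a dye swap that the labels mention, spot intensities and the genome build are not given in the sources used here, and no sign was turned. The number of arrays limits the precision.

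Of 22702 spots, 883 controls were left out, and 16656 of 21819 library oligos had 1 symbol in the platform's annotation, 137 had more than 1, and 5026 were unnamed here. Oligos needed a value on all 3 arrays (21094), and those of a symbol were averaged (1000 symbols had more than 1). Entrez identifiers of 15970 oligos were found in RefSeq and changed 0 symbols. Genes were tested with limma 3.58.1 in R 4.3.3 (intercept only, eBayes, two-sided, Benjamini-Hochberg over 19635 genes, threshold 0.05), after a test on simulated data. Errors are SDs over 3 arrays. An exact sign-flip test on 3 arrays cannot go below a p of 0.25. No 2 arrays held the same values throughout, and the labels name no batch. Members, lists and rules were chosen with earlier results of these data known. Named were all members, fixed genes of each list, its lowest and highest gene, those with an unadjusted p under 0.05, and the 3 nearest genes of each member.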

Additional observations from a re-analysis of the deposited data

How the results depend on the processing

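The median of the means of the 9 genes ran from -1.34 to -1.09 with 1 array left out, and the count at -1 or lower from 5 to 6, the sixth being Gata1 without array 2. Under centring, scaling, quantile normalization, other oligo rules, the floor, missing-value rule and array weights, the count stayed at 5 and each mean moved by less than its SD. Hbb-y alone changed sign, without array 1. The gene past an adjusted p of 0.05 was lost with arrays scaled to one spread and with floor values set to missing (0 in each), and with any array left out (from 0 to 0). Genes with an unadjusted p under 0.05 ran from 1686 to 3929 with 1 array left out. Those of the red-cell lists, without the 9 genes, ran from 13 to 20, with fewer arrays in each such fit. Array weights gave 4218 and 29. No paired analysis was possible because there is 1 group of arrays, whose ratios already pair the tissues within each array. Spot intensities were not used here, so signal over background is unknown.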
